A study of Chenopodium quinoa with 24 samples.

Results

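The transcripts described here are the quinoa (Chenopodium quinoa) leaf transcripts whose best Arabidopsis match was one of 31 nuclear loci of the photosynthetic electron transport chain. The loci encode subunits of photosystem I (PSI) and photosystem II (PSII), the mobile and membrane-bound electron carriers between and after them, and the subunits of the plastid ATP synthase that are made in the cytosol. Of the 44776 transcripts in the deposited table, 54 matched 24 of these loci. The other 7 loci, PSAD1, PSAE1, PSAH1, PSBO1, PSBTN, PETE1 and LFNR1, were the best match of no transcript, and for most of them a close paralog on the list (PSAD2, PSAE2, PSAH2, PSBO2, PETE2 and LFNR2) took the transcripts. Each of the 54 was tested in at least 1 comparison and 50 were tested in all 6. Quinoa is an allotetraploid, and 19 of the 24 loci were matched by 2 transcripts, 1 (PSBQ2) by 1 transcript and 4 (FD2, ATPG, PSBY and LFNR2) by more than 2.

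The leaves came from 24 plants of the accession QQ74, grown at 22°C until the first flowers of the main panicle opened and then kept in 1 of 4 treatments. In HR the roots were at 30°C and the shoots at 22°C, in HS the shoots were at 35°C and the roots at 22°C, in HRS the roots were at 30°C and the shoots at 35°C, and in control plants both were at 22°C. Green, healthy leaves from the middle of the plant were sampled from 3 plants of each treatment on day 1 and from 3 on day 11. All plants were of the same accession and were chosen for a similar stage before the treatments began. Plants sampled on day 11 were older than those sampled on day 1, so age and time in treatment cannot be told apart between the days. HS and HRS plants stood in one growth chamber and HR and control plants in another, so the chamber and the heating of the shoots cannot be told apart. Each treatment was held in its own box, with a cool water line in the HS box and a heating coil in the HR box. The box and its line or coil therefore cannot be told apart from the temperature of the roots.

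Light absorbed by PSII drives the oxidation of water at a manganese cluster that the PSBO, PSBP and PSBQ proteins shield on the lumen side of the thylakoid. Electrons then pass through the cytochrome b6f complex, which holds the Rieske iron-sulfur protein, and through plastocyanin to PSI, which reduces ferredoxin. Ferredoxin-NADP reductase (FNR) makes NADPH, and the proton gradient built along the way drives the plastid ATP synthase. The reaction centre proteins themselves are encoded in the plastid genome and are not among the 54 transcripts, which code for the nuclear-encoded subunits around them. In photosynthetic leaves these are among the most abundant messenger RNAs.

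The deposited table gives, for each transcript and each treatment against control of the same day, the effect b, which is the difference between the means of 3 treated and 3 control plants on the natural log scale. Values of single plants are not part of it, so whether the plants of 2 groups overlap could not be seen. Levels below are the geometric means of the groups in normalized estimated counts, computed from b and the mean of the 6 plants, ± is the standard error (SE) of b, and the fold is the exponential of b. The median within-group standard deviation of the 54 transcripts on the natural log scale was 0.28 in the comparison of HS with control on day 11, and between 0.11 and 0.15 in the other 5 comparisons. Over all transcripts it was 0.24 in that comparison and between 0.19 and 0.24 in the others. The transcripts were abundant: their median mean count lay between the 99.3 and 99.5 percentile of all tested transcripts in each comparison. A transcript is called where the Wald p, recomputed from b and its SE and adjusted by Benjamini-Hochberg over all transcripts, was under 0.05. Calls by limma, which allows for the small number of plants, are given beside it. The 3 comparisons of a day share their control plants.

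The share of the summed group levels of all tested transcripts that fell on the members summarises their course. It is a ratio of summed geometric means and covers the 51 to 54 members tested in each comparison. On day 1 it was 4.11% in HR, 5.01% in HS and 4.69% in HRS leaves, against 3.25% in control leaves. On day 11 it was 6.31% in HR, 2.61% in HS and 5.15% in HRS leaves, against 5.49% in control leaves. HS leaves thus had the highest share of the 4 groups on day 1 and the lowest on day 11. In bulk leaf RNA, fewer cells that express these genes and less RNA per cell cannot be told apart.

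**Figure D1:**
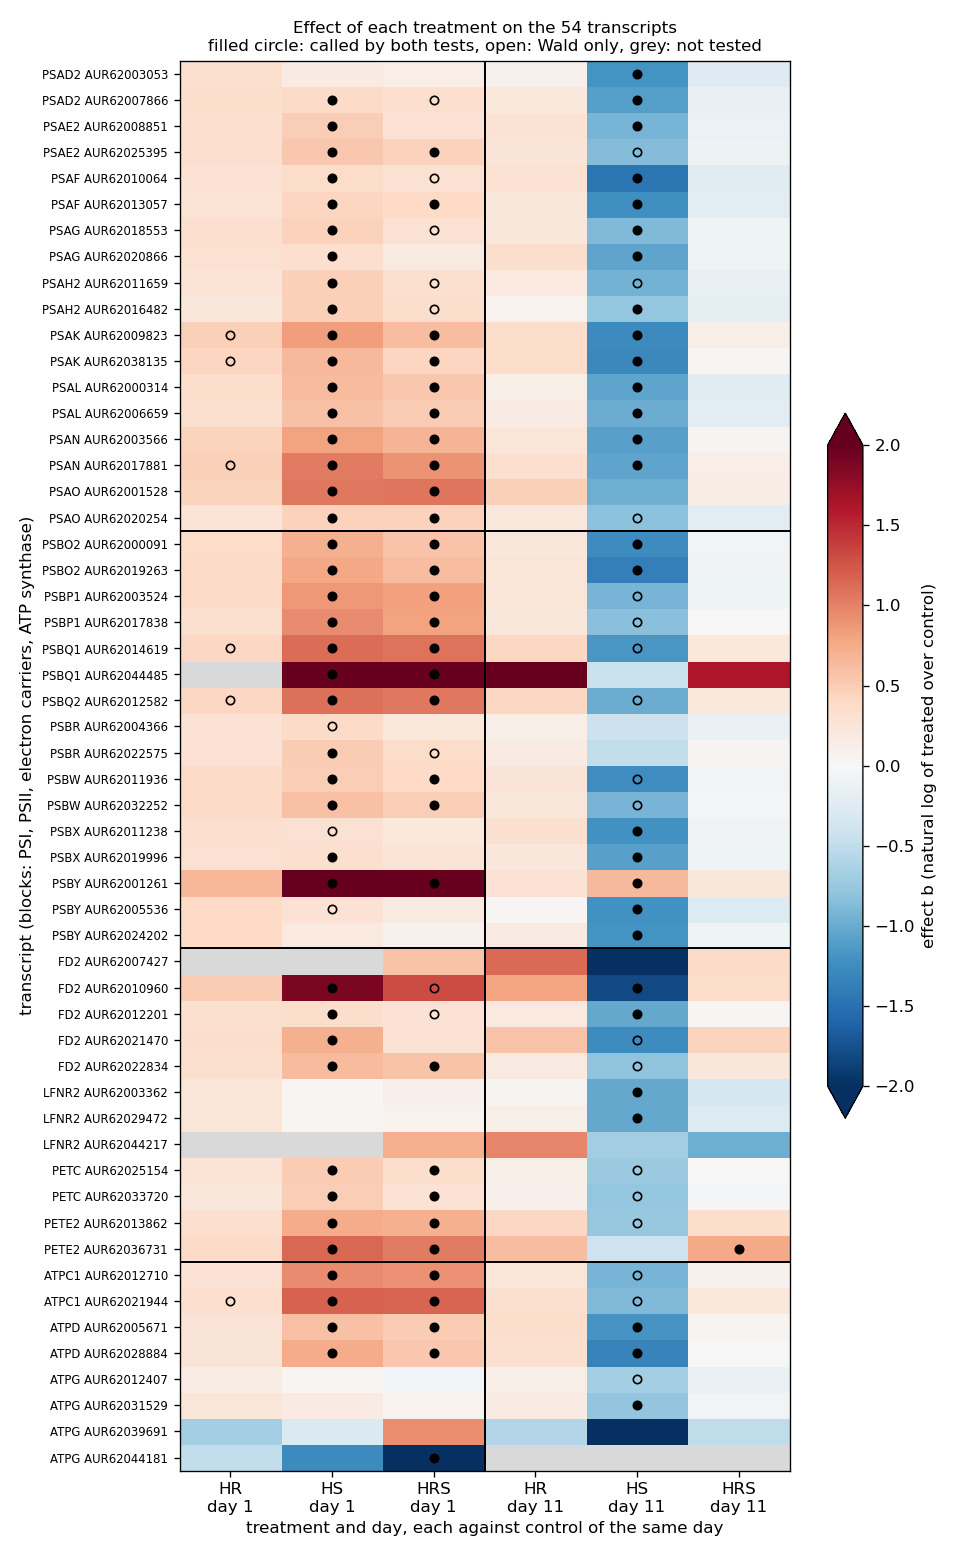
Effect b of HR, HS and HRS against control of the same day (columns, day 1 left and day 11 right) for each of the 54 transcripts (rows, in blocks of PSI subunits, PSII subunits, electron carriers and ATP synthase subunits). Red is higher and blue lower than control, circles mark calls, and grey cells were not tested; the HS column is red on day 1 and blue on day 11 in nearly every row, with 44 transcripts called higher on day 1 and 44 called lower on day 11.

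In HS leaves on day 1, 44 of 52 tested transcripts were called higher than in control leaves and 0 lower, and over all transcripts 14.1% were called higher and 12.3% lower. Limma called 41 higher and 0 lower, against 12.1% and 10% over all transcripts. The median b was 0.52 (1.69-fold) over the 52 and close to 0 over all transcripts. The called transcripts were 17 of 18 for PSI subunits, 15 of 16 for PSII subunits, 8 of 10 for electron carriers and 4 of 8 for the ATP synthase. Of 54 transcripts tested in HRS leaves on day 1, 37 were called higher and 1 lower, against 14.1% higher and 12.5% lower over all transcripts. Limma called 29 higher and 1 lower there, against 12.2% and 10.5% over all transcripts. Both shoot-heated groups were above control for 49 of the 52 transcripts tested in both, with the same control plants in both comparisons.

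The difference was smaller against the other plants with unheated shoots. In HR leaves on day 1, with unheated shoots, 49 of 51 transcripts also had b above 0, with a median of 0.33, although only 6 were called higher (0 by limma). Over all transcripts 0.356% were called higher in HR by the Wald test and 0% by limma, and 50.8% had b above 0. At an unadjusted p under 0.05, 43 of the 51 were higher in HR (40 by limma). The share over all transcripts at that unadjusted p was not counted. When HR plants of day 1 took the place of control plants, in a comparison chosen after the data were seen, 9 of 51 were called higher in HS leaves and 7 of 51 in HRS leaves, against 5.32% and 5.38% over all transcripts. The standard error of these differences is the largest that the separate fits allow, which in itself lowers the number of calls. The medians of these differences were 0.23 for HS and 0.12 for HRS. The size of the day 1 rise therefore depends on which plants with unheated shoots it is measured against, and the 2 sets of unheated plants cannot be ranked as a baseline from these data.

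On day 11, 44 of 53 transcripts were called lower in HS leaves than in control leaves and 1 was called higher, against 7.49% lower and 6.09% higher over all transcripts. Limma called 27 lower and 1 higher, against 2.86% and 2.09%. The median b was -1.02, which is 0.36 of the control level. The transcripts called lower were 17 of 18 for PSI, 12 of 16 for PSII, 9 of 12 for the carriers and 6 of 7 for the ATP synthase. Against HR plants of day 11 in place of control plants, 46 of 53 were called lower in HS leaves (5.77% over all transcripts), with a median difference of -1.24, so the fall was there against either set of plants with unheated shoots. Scaled to the total estimated counts, taken as the summed group levels, the median b in HS leaves was 0.35 on day 1 and -0.78 on day 11. Under this scaling, in place of the deposited one, 34 transcripts were called higher on day 1 and 39 lower on day 11. The shares over all transcripts under it were not counted. On day 1 this scaling turned the sign of 5 transcripts that were not called in HS leaves. They were those of PSAD2 AUR62003053, LFNR2 AUR62003362 and AUR62029472, and ATPG AUR62012407 and AUR62031529. In HRS leaves on day 11 the median b was -0.05, and 1 of 53 transcripts was called higher and 0 lower, against 6.08% higher and 6.2% lower over all transcripts (2.78% and 2.77% by limma). Against HR plants, HRS leaves had a median difference of -0.31 on day 11, with 0 of 53 called (0.184% higher and 0.649% lower over all transcripts) and 6 lower at an unadjusted p under 0.05. In HR leaves on day 11, 0 of 53 were called in either direction, by limma as by the Wald test, while 15 had an unadjusted p under 0.05. Over all transcripts 0.34% were called higher and 0.539% lower in HR on day 11. No share over all transcripts was counted at an unadjusted p.

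Among the PSI subunits, PSAN (AT5G64040), a lumenal subunit on the plastocyanin side, and PSAK (AT1G30380), an antenna-docking subunit, had the highest effects in HS leaves on day 1 together with PSAO (AT1G08380). PSAN AUR62017881 averaged 15755 counts in HS leaves, against 5606 in control leaves, a 2.81-fold difference (b = 1.03 ± 0.13). PSAO AUR62001528 averaged 11235 in HS and 3917 in control leaves (b = 1.05 ± 0.20). Both were among the 15 PSI transcripts also called higher in HRS leaves, where PSAO AUR62001528 averaged 10955, against 3737 in control leaves (b = 1.08 ± 0.13). The lowest PSI effect of the day was that of AUR62003053, the more abundant transcript of PSAD2 (AT1G03130), which forms the ferredoxin docking site. It had b = 0.16 ± 0.12 in HS and 0.13 ± 0.12 in HRS leaves and was called in neither. Next came PSAG (AT1G55670) AUR62020866, with b = 0.34 ± 0.09 in HS and 0.19 ± 0.12 in HRS leaves.

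On day 11, 17 of the 18 PSI transcripts were called lower in HS leaves. PSAF (AT1G31330), which binds plastocyanin and had been near the lower end on day 1, fell furthest. Its transcript AUR62010064 averaged 6728 counts in HS leaves, against 29116 in control leaves (0.231 of control, b = -1.47 ± 0.30). PSAF AUR62013057, the more abundant copy, averaged 9736 in HS and 33298 in control leaves. Both PSAF transcripts passed limma as well. PSAK AUR62038135 and AUR62009823 followed with b = -1.28 ± 0.36 and -1.27 ± 0.32. The smallest falls among the PSI transcripts were those of PSAH2 (AT1G52230), the docking subunit for light-harvesting complex II, in AUR62016482 (b = -0.78 ± 0.17), and of PSAO AUR62020254 (b = -0.82 ± 0.23). PSAO AUR62001528 was the only PSI transcript not called, with b = -0.98 ± 0.38 and an adjusted p of 0.064 by the Wald test.

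The remaining PSI loci moved between these bounds. PSAL (AT4G12800), which together with PSAH forms the docking side for light-harvesting complex II, averaged 30559 counts in HS leaves on day 1, against 17027 in control leaves, in transcript AUR62006659. On day 11 the same transcript averaged 11175 in HS and 30271 in control leaves. PSAE2 (AT2G20260), at the stromal ferredoxin site, averaged 9736 in HS and 23255 in control leaves on day 11 in AUR62025395. PSAL AUR62006659 thus stood at 0.369 and PSAE2 AUR62025395 at 0.419 of control. PSAG, which anchors the antenna of PSI, averaged 3926 in HS and 11239 in control leaves on day 11 in AUR62020866. In HRS leaves on day 11, b ranged over the 18 PSI transcripts from -0.26 in PSAD2 AUR62003053 to 0.15 in PSAO AUR62001528, and 13 of 18 were below 0 without a call.

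The 4 loci of the oxygen-evolving complex stood at the upper end of the PSII transcripts on day 1, below only 1 PSBY and 1 weak PSBQ1 transcript described further on. PSBQ1 (AT4G21280) AUR62014619 averaged 23798 counts in HS leaves, against 7739.7 in control leaves (3.07-fold, b = 1.12 ± 0.14). PSBQ2 (AT4G05180) AUR62012582 averaged 20485 in HS and 6776 in control leaves (b = 1.11 ± 0.14). In HRS leaves they averaged 21837 and 18682, against 7384 and 6464 in control leaves. PSBQ thus reached close to 3 times the control level in both shoot-heated groups. PSBP1 (AT1G06680) AUR62017838 averaged 55429 in HS and 21692 in control leaves (b = 0.94 ± 0.12). PSBO2 (AT3G50820), the manganese-stabilizing protein, averaged 41657 in HS and 19283 in control leaves in AUR62019263 (b = 0.77 ± 0.12).

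PSBO2 had the 2 lowest effects of the PSII transcripts in HS leaves on day 11. AUR62019263 averaged 16105 counts in HS leaves, against 63328 in control leaves (0.254 of control, b = -1.37 ± 0.23), and AUR62000091 averaged 20025 in HS and 70716 in control leaves (b = -1.26 ± 0.23). With heated roots as well, in HRS, PSBO2 AUR62019263 averaged 50796 on day 11, against 54192 in control leaves (b = -0.06 ± 0.16). The PSBO2 level in HRS leaves was therefore close to control. PSBQ1 AUR62014619 averaged 7304 in HS and 23462 in control leaves on day 11 (b = -1.17 ± 0.32), and PSBP1 AUR62017838 averaged 23207 in HS and 53587 in control leaves (b = -0.84 ± 0.23). The PSBP1, PSBQ1 and PSBQ2 falls were called by the Wald test and not by limma, where their adjusted p lay between 0.056 and 0.094.

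The small intrinsic subunits of PSII gave smaller effects on day 1. PSBW (AT2G30570), which stabilizes PSII supercomplexes, averaged 16179.7 counts in HS and 8992 in control leaves in AUR62032252 (b = 0.59 ± 0.10). PSBX (AT2G06520) averaged 16446 in HS and 12101 in control leaves in AUR62011238 (b = 0.31 ± 0.11). On day 11 the same transcripts had b = -0.93 ± 0.23 and -1.20 ± 0.26 in HS leaves. PSBR (AT1G79040), a subunit near the oxygen-evolving complex, had the effects closest to 0 of the abundant PSII transcripts in HS leaves on day 11. Its transcripts AUR62004366 and AUR62022575 were called higher in HS leaves on day 1, with b = 0.39 ± 0.13 and 0.52 ± 0.12, but had b = -0.43 ± 0.23 and -0.49 ± 0.22 on day 11 and were not called.

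PSBY (AT1G67740), a small subunit next to cytochrome b559, had 1 transcript whose day 1 effect was the highest of the 54 in both shoot-heated groups. AUR62001261 averaged 33654 counts in HS leaves on day 1, against 315 in control leaves (107-fold, b = 4.67 ± 0.26, limma adjusted p 1.9e-05). In HRS leaves it averaged 20324, against 301 in control leaves (67.6-fold), and in HR leaves 574, against 294. Both groups with heated shoots thus stood far above both groups without. The transcripts AUR62005536 and AUR62024202 of the same locus averaged 13325 and 12823 in HS leaves on day 1, against 10041 and 10475 in control leaves. AUR62001261 held 56.3% of the counts of the 3 transcripts in HS leaves and 47.5% in HRS leaves, against 1.51% in control leaves.

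On day 11 PSBY AUR62001261 averaged 1609.9 counts in HS leaves, against 842 in control leaves (b = 0.65 ± 0.14), and was the 1 transcript of the 53 called higher. In HRS leaves it averaged 909, against 721 in control leaves. The large day 1 effect was thus no longer there, although the direction was kept. PSBY AUR62005536 and AUR62024202 fell with the other PSII transcripts in HS leaves on day 11, to 0.298 and 0.301 of control. The match of AUR62001261 to PSBY is the deposited best Arabidopsis match and was not checked against a sequence.

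**Figure D2:**
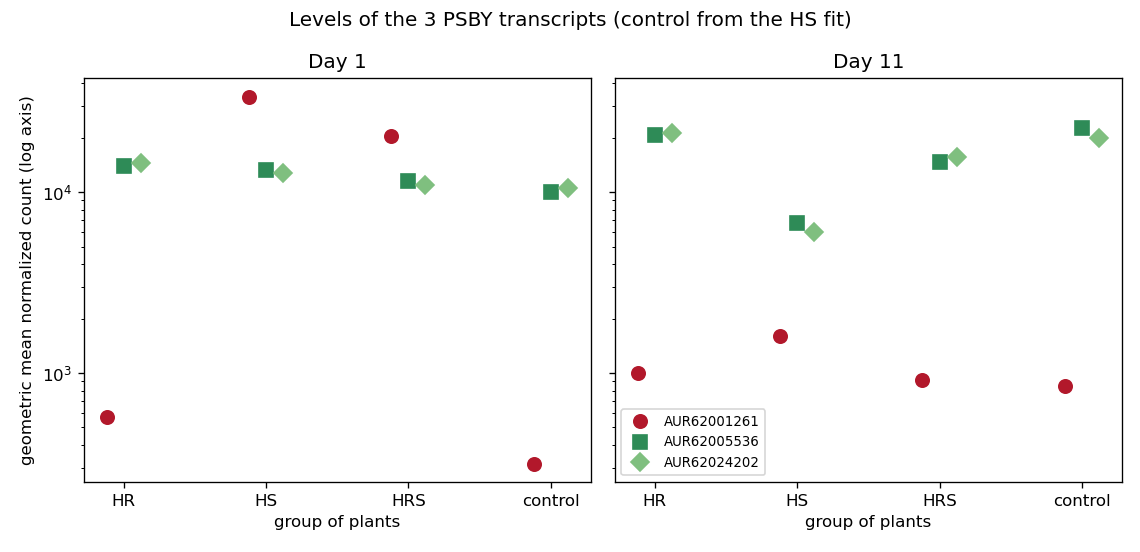
Geometric mean normalized count (log axis) of the 3 PSBY transcripts in HR, HS, HRS and control leaves on day 1 (left) and day 11 (right), 3 plants per group; each point is a group mean, with no error drawn. On day 1 AUR62001261 stands at 33654 in HS and 20324 in HRS leaves, against 574 in HR and 315 in control leaves.

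Of the electron carriers, plastocyanin (PETE2, AT1G20340) had the largest effects on day 1 among transcripts with more than 100 counts. PETE2 AUR62036731 averaged 8396 counts in HS leaves, against 2677 in control leaves (b = 1.14 ± 0.10), and 7174 in HRS leaves, against 2554 in control leaves (b = 1.03 ± 0.18). On day 11 it averaged 4030.2 in HS and 6077 in control leaves, which was not called (b = -0.41 ± 0.25). In HRS leaves on day 11 it averaged 11082, against 5200.2 in control leaves (b = 0.76 ± 0.19, adjusted p 0.0016 by the Wald test and 0.047 by limma). This was the 1 transcript of 53 called in HRS leaves on that day. The other PETE2 transcript, AUR62013862, averaged 9831 in HRS and 6878 in control leaves and was not called (b = 0.36 ± 0.14), while in HS leaves it fell to 0.466 of control.

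The Rieske protein (PETC, AT4G03280) moved less. PETC AUR62033720 averaged 10268 counts in HS leaves on day 1, against 6283 in control leaves (b = 0.49 ± 0.10). On day 11 it averaged 7547 in HS and 16359 in control leaves (b = -0.77 ± 0.19). Ferredoxin (FD2, AT1G60950) had 2 abundant transcripts, of which AUR62012201 averaged 8403 in HS and 23300.2 in control leaves on day 11 (b = -1.02 ± 0.23). On day 1 its b in HS leaves was 0.36 ± 0.10. FD2 also had 3 weak transcripts, the 1 with the strongest called response being AUR62010960, with 61.5 counts in HS and 9.34 in control leaves on day 1 (b = 1.88 ± 0.39) and 35.5 in HS and 216 in control leaves on day 11 (b = -1.81 ± 0.53).

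FNR (LFNR2, AT1G20020) was not called in HS leaves on day 1 and fell on day 11. LFNR2 AUR62029472 averaged 12493 counts in HS leaves on day 1, against 11929 in control leaves (b = 0.05 ± 0.10). On day 11 it averaged 10444 in HS and 29165 in control leaves (b = -1.03 ± 0.20). LFNR2 AUR62003362 had b = 0.04 ± 0.10 on day 1 and -1.03 ± 0.19 on day 11. Both were called on day 11 by the Wald test and by limma. LFNR2 AUR62003362 in HRS leaves on day 11 had b = -0.35 ± 0.15, which was not called.

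The subunits of the ATP synthase differed among themselves on day 1. ATPC1 (AT4G04640), the gamma subunit through which the enzyme is redox-controlled, averaged 8485 counts in HS leaves, against 2620.1 in control leaves, in AUR62021944 (3.24-fold, b = 1.18 ± 0.09). In HRS leaves it averaged 8034, against 2499.7 in control leaves (b = 1.17 ± 0.09). ATPD (AT4G09650), the delta subunit, averaged 3232 in HS and 1541 in control leaves in AUR62028884 (b = 0.74 ± 0.14). ATPG (AT4G32260), a subunit of the peripheral stalk, was not called, and AUR62012407 averaged 8096 in HS and 7784 in control leaves (b = 0.04 ± 0.10), and AUR62031529 had b = 0.16 ± 0.09.

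On day 11 the 2 abundant transcripts of each of the 3 ATP synthase loci were called lower in HS leaves. ATPD AUR62028884 averaged 1828 counts in HS leaves, against 6984 in control leaves (0.262 of control, b = -1.34 ± 0.23). ATPC1 AUR62012710 averaged 8340.3 in HS and 21023 in control leaves (b = -0.92 ± 0.21), and ATPG AUR62012407 averaged 5764 in HS and 11362 in control leaves (b = -0.68 ± 0.18). ATPD thus fell the furthest and ATPG the least. For these 6 transcripts in HRS leaves on day 11, b lay between -0.14 in ATPG AUR62012407 and 0.21 in ATPC1 AUR62021944 without a call.

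A few weak transcripts carry little information. PSBQ1 AUR62044485 was at an estimated count of 0 in the control plants of day 1, so its calls in HS and HRS leaves, at 24 and 19.6 counts, depend on the offset added before the log, and no fold is given. ATPG AUR62044181, the 1 transcript called lower in HRS leaves on day 1, was at an estimated count of 0 in HRS leaves and at 9.73 in control leaves. It was not tested on day 11. ATPG AUR62039691 was at 3.27 counts in HS and 28.4 in control leaves on day 11 and was called in no comparison. FD2 AUR62007427 and LFNR2 AUR62044217 were not tested in HR or HS on day 1 and were called nowhere. FD2 AUR62021470, at 115 counts in HS and 56.5 in control leaves on day 1, followed the abundant FD2 transcripts, with b = 0.71 ± 0.18 on day 1 and -1.25 ± 0.45 on day 11.

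In HR leaves the 6 transcripts called on day 1 by the Wald test were PSAK AUR62009823 and AUR62038135, PSAN AUR62017881, PSBQ1 AUR62014619, PSBQ2 AUR62012582 and ATPC1 AUR62021944. PSAK AUR62009823 averaged 8175 counts in HR leaves, against 5042 in control leaves (b = 0.48 ± 0.10, adjusted p 0.002 by the Wald test and 0.49 by limma). The others had b between 0.34 (ATPC1) and 0.48 (PSAN). The effects were thus small, alike across the roles, and not called by limma. On day 11, 52 of 53 transcripts had b above 0 in HR leaves, against 50.4% over all transcripts. The median b of the 53 was 0.24, and the highest of the abundant transcripts was that of PETE2 AUR62036731 (b = 0.61 ± 0.20).

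The effect of HS on day 11 was below that on day 1 for all 51 transcripts tested on both days, with a median difference of -1.55. By a z test of the difference, 49 of 51 were called lower on day 11, against 9.31% over all transcripts, and limma called 48, against 8.24%. The smallest p belonged to PSBY AUR62001261 (-4.02 ± 0.29), ATPC1 AUR62021944 (-2.06 ± 0.23) and PSBO2 AUR62019263 (-2.14 ± 0.26). The ratio of HS to control for PSBO2 AUR62019263 was thus 8.49 times lower on day 11 than on day 1. The exceptions were the weak PSBQ1 AUR62044485 and ATPG AUR62039691. In 49 of 51 transcripts b was above 0 on day 1 and below 0 on day 11, and 38 of these were called on both days (20 by limma). Over all transcripts 14.1% were called higher on day 1 and 7.49% lower on day 11 (12.1% and 2.86% by limma). The share over all transcripts called higher on day 1 and lower on day 11 was not counted. Since a treatment is measured against other control plants on each day, the differences between the days also hold the change in the control leaves.

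The HRS effect changed less between the days. Its median difference was -0.48, and 17 of 53 transcripts were called lower on day 11, against 4.64% over all transcripts (12 by limma, against 3.59%). The smallest p belonged to PSBY AUR62001261 (-3.98 ± 0.24), PSBQ1 AUR62014619 (-0.88 ± 0.19) and ATPC1 AUR62021944 (-0.96 ± 0.21). PSBQ1 and ATPC1, both near 3 times the control level in HRS leaves on day 1, were thus closer to it on day 11, and 0 of the 53 transcripts were called below control in HRS leaves on that day, against 6.2% over all transcripts.

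**Figure D3:**
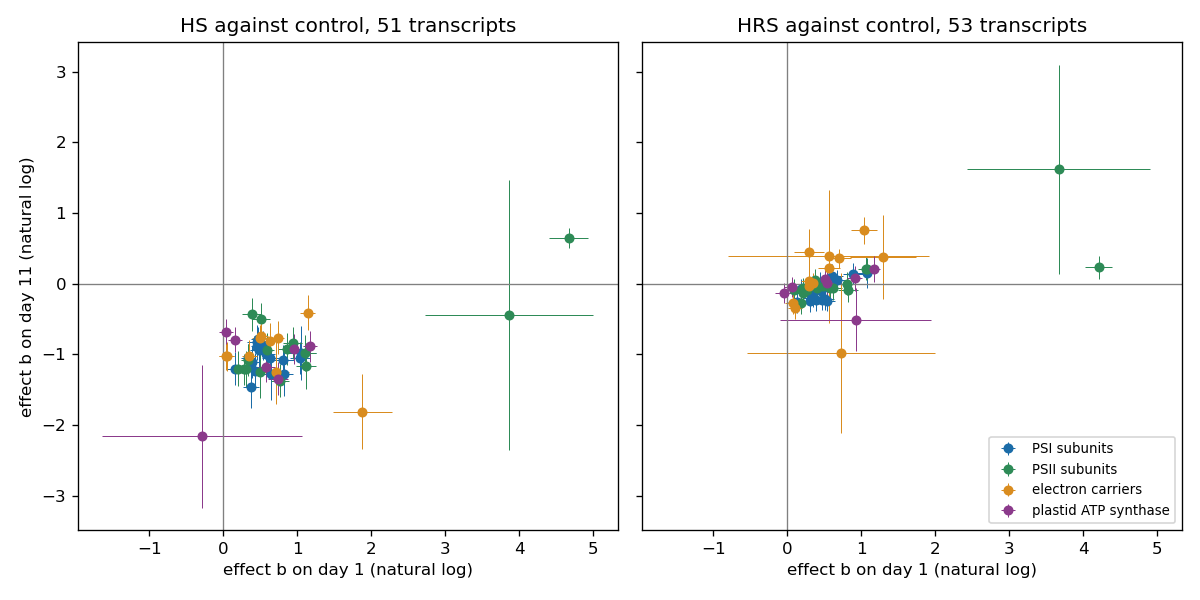
Effect b on day 1 (x axis) and day 11 (y axis), natural log, for HS (left, 51 transcripts) and HRS (right, 53 transcripts) against control; points are transcripts coloured by role and bars are SE. HS points lie right of 0 on the x axis and below 0 on the y axis for 49 of 51 transcripts, and HRS points lie around 0 on the y axis.

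Control leaves themselves changed between the days. Relative to the median transcript, each of the 51 transcripts tested in both HS comparisons was higher in control leaves on day 11 than on day 1, by a median of 0.80 on the natural log scale (2.24-fold). The smallest change was that of PSBR AUR62004366 (1.36-fold), and PSBO2 AUR62019263 changed 3.24-fold. In HR leaves the 50 transcripts tested on both days had a median change of 2.01-fold and in HRS leaves, over 53, of 1.41-fold. In HS leaves the median was 0.46-fold and 50 of 51 were lower on day 11. HS was thus the only one of the 4 groups whose median went down with time. These changes are descriptions without a test, since the days were scaled separately.

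**Figure D4:**
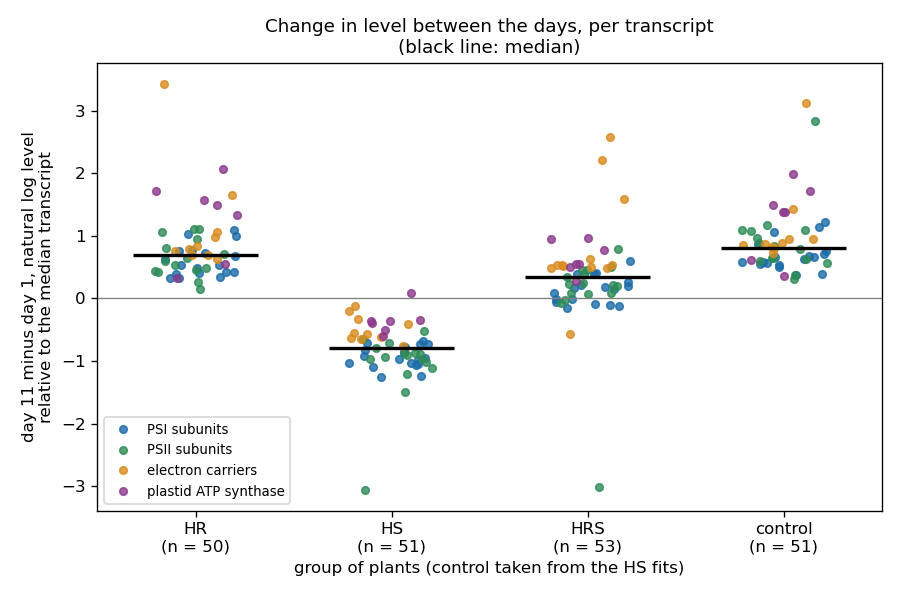
Change in level between day 1 and day 11 for each transcript (points, coloured by role) in HR, HS, HRS and control leaves, on the natural log scale relative to the median transcript, with the median of each group as a black line. The medians are 0.70 in HR, -0.79 in HS, 0.34 in HRS and 0.80 in control leaves.

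HRS leaves, from plants with warmer roots and in another box, showed no called difference from HS leaves on day 1. HRS minus HS was called for 0 of 52 transcripts, higher or lower, with an unadjusted p under 0.05 for 0 of them by the z test, and limma also called 0. Over all transcripts 0.02% were called higher and 0.0333% lower. The median difference was -0.10 and the median half-width of its 95% interval was 0.34, and for PSBO2 AUR62000091 (difference -0.14) the interval of the HRS to HS ratio ran from 0.611 to 1.23. The smallest p were those of FD2 AUR62021470 (-0.42), PETC AUR62033720 (-0.20) and PSBY AUR62001261 (-0.46). The standard error used here is the largest that the separate fits allow.

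On day 11, 31 of 53 transcripts were called higher in HRS than in HS leaves, against 2.85% over all transcripts. The median difference was 1.00, which is 2.72-fold. Limma called 0 of 53, against 0% over all transcripts, with its smallest adjusted p among the 53 at 0.11. Both tests used the largest standard error that the separate fits allow, which in itself lowers the number of calls. The smallest z test p belonged to PSBO2 AUR62019263 (3.69-fold), ATPD AUR62028884 (1.35 ± 0.30) and PSAN AUR62003566 (1.13 ± 0.25). In levels against each comparison's own control, PSAN AUR62003566 averaged 4369 counts in HRS leaves (control 4149) and 1645 in HS leaves (control 4849). PSBY AUR62001261, at -0.42 ± 0.21, and the weak LFNR2 AUR62044217 were the 2 of 53 transcripts lower in HRS than in HS leaves. Scaled to the total estimated counts, 11 were called higher and 1 lower, and the shares over all transcripts under that scaling were not counted.

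**Figure D5:**
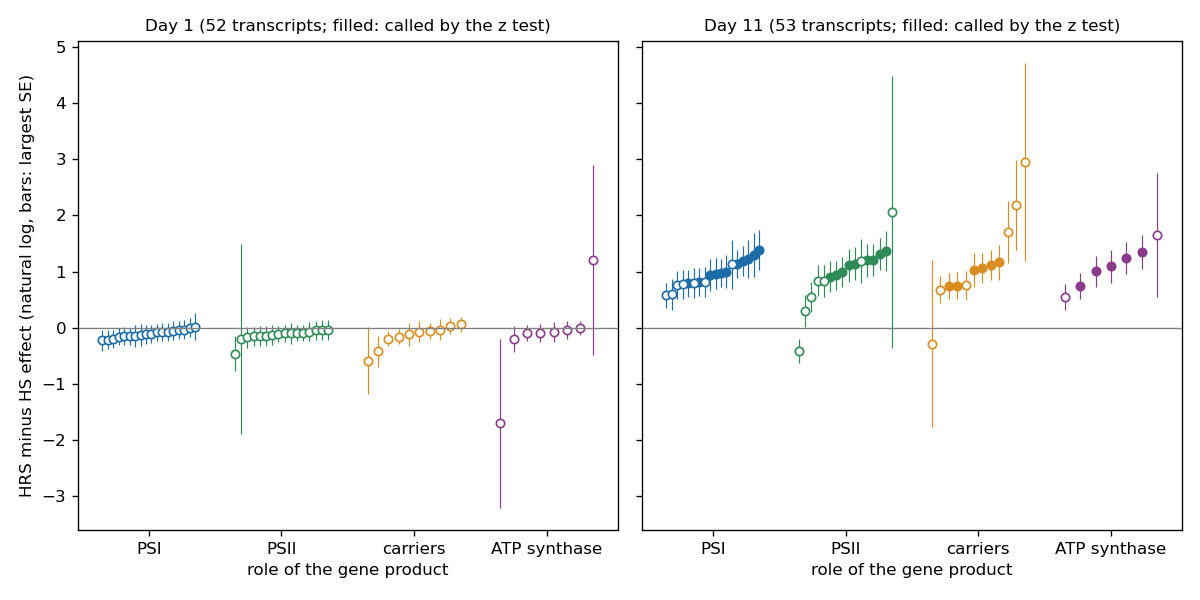
HRS minus HS effect (natural log) for each transcript by role, on day 1 (left) and day 11 (right); bars are the largest SE that the fits allow and filled points were called by the z test. On day 1 points lie around 0 with none called, and on day 11 they lie around 1 with 31 of 53 called.

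Among loci with exactly 2 tested transcripts, no pair was called different. PSBY, FD2 and ATPG, and LFNR2 outside HR and HS on day 1, had more than 2 tested and were not compared. The unlike effects of the PSBY transcripts on day 1, described above, were thus not part of this test. Among the loci with 2 tested transcripts, 20 pairs in HS on day 1 and 19 in each other comparison, 0 pairs differed in effect in any comparison after adjustment over all such loci, of which 0.902% differed in HS on day 1, 1.16% in HRS on day 1 and 0.0275% in HRS on day 11, with 0% in the other 3 comparisons. Their effects had the same sign in every pair, except in HRS on day 11, where 15 of 19 did. The median absolute difference between copies lay between 0.03 and 0.12, while over all loci with 2 transcripts it lay between 0.12 and 0.21. At an unadjusted p under 0.05, PSBQ1 and PETE2 differed in HS on day 1 and PSAO in HRS on day 1. PSAO AUR62001528 was above AUR62020254 by 0.61 ± 0.23 there (adjusted p 0.257). Reads that fit both copies can be divided wrongly between them, and the inferential variance of the kallisto estimates shows where. This variance, relative to that from counting alone, had a median between 0.995 and 1.07 in each comparison, and exceeded 3 only in weak transcripts of ATPG, FD2, LFNR2 and PSBQ1.

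Nuclear genes around the chain were read from lists of other loci. Of the 32 transcripts for the NDH complex, which carries electrons around PSI, 25 were called higher in HS leaves on day 1 and 24 lower on day 11 (24 and 12 by limma), against 14.1% higher and 7.49% lower over all transcripts (12.1% and 2.86% by limma), shares that also stand beside the lists that follow. PNSL4 AUR62002037, of its lumenal part, averaged 392 counts in HS and 1259 in control leaves on day 11 and NDHU AUR62009088 1145 in HS and 3184 in control leaves, the lowest effects of that list, while NDHM AUR62013436 and PNSL3 AUR62015635 were at 0.841 and 0.941 of control and not called. Of 6 transcripts for cyclic and alternative electron flow, 4 were higher on day 1 and 4 lower on day 11 (4 and 2 by limma). PGR5 and PGRL1A, which act together in cyclic flow, averaged 1605 and 5881 in HS leaves on day 11, against 4078 and 13204 in control leaves. The 2 transcripts of PTOX, the plastid terminal oxidase, were at 1.01 and 0.872 of control and not called. Of 11 transcripts for photoprotection and thylakoid kinases, 2 were higher and 2 lower on day 1, near the 14.1% and 12.3% over all transcripts, and 9 were lower on day 11, of which limma called 2. Among these, ZEP (zeaxanthin epoxidase) averaged 3338 in HS and 8602 in control leaves, and PSBS (the sensor of non-photochemical quenching) 4165 in HS and 9977 in control leaves. The smallest changes on that list were those of the 2 STN7 transcripts, which were not called.

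Factors that assemble the photosystems and the cytochrome complex were called higher in HS leaves on day 1 in 29 of 40 transcripts (27 by limma), and on day 11 in 1 of 41, with 18 lower (0 and 15 by limma). The lowest were the weak CCB4 AUR62026532 and Y3IP1 AUR62042810, at 0.148 and 0.213 of control, and the 1 called higher was ALB3 AUR62040625, at 59.8 counts in HS and 21.1 in control leaves. HCF136 AUR62024854, at 7.67 counts in HS and 1.28 in control leaves, was not called. The median b of the list on day 11 was -0.55, against -1.02 for the 53 transcripts of the chain. Of 6 transcripts for other ferredoxins and root-type FNR, 4 were higher on day 1 and 0 were called on day 11, when they ranged from 0.689 of control in FDC2 AUR62007269 to 1.49-fold in FD3 AUR62036186. FDC1 AUR62033635 and RFNR2 AUR62038006 were at 0.744 and 1.04 of control. The NDH, cyclic flow and assembly lists thus had more transcripts called higher on day 1 and more called lower on day 11. In HRS leaves on day 11, 6 of 32 NDH transcripts were called higher and 3 lower (1 and 0 by limma), and 7 of 40 assembly transcripts higher and 2 lower (0 and 1 by limma), against 6.08% higher and 6.2% lower over all transcripts, so nearly all of these calls are lost with limma.

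Genes that mark the leaf itself were read beside these results. Of 14 transcripts of the mesophyll markers RBCS1A and LHCB1.3, 13 were called lower in HS leaves on day 11 (10 by limma, against 7.49% and 2.86% over all transcripts), with a median b of -1.95, and their summed level was 368813 counts in HS leaves, against 1316742 in control leaves. The sum on day 1 was 846409 counts in HS leaves, against 542292 in control leaves, but single transcripts were split. On that day 6 of the 14 were called higher and 2 lower (5 and 2 by limma), with a median b of 0.28. Over all transcripts 14.1% were called higher and 12.3% lower (12.1% and 10% by limma). Of the 8 mesophyll loci listed, only these 2 were matched by a transcript. Of 11 tested transcripts of the senescence list, 0 were called higher and 1 (NYC1 AUR62021494) lower in HS leaves on day 11. Over all transcripts 6.09% were called higher and 7.49% lower there. Their median b was 0.54, and their summed level was 12499 counts in HS and 10954 in control leaves. SAG12, its defining marker, was at 31 counts in HS and 159.8 in control leaves in the 1 transcript tested. In HRS leaves on day 11, 5 of the 14 mesophyll transcripts were called lower and 1 higher (1 and 0 by limma). Of 11 senescence transcripts tested there, 5 were called lower and 0 higher (1 and 0 by limma). Over all transcripts 6.2% were called lower and 6.08% higher in HRS on day 11 (2.77% and 2.78% by limma). The part of a change in mesophyll or in leaf age in the falls in HS leaves above was not tested. Root endodermis markers were tested in 0 of 3 transcripts, and flower markers summed to 70.2 counts in HS and 62.1 in control leaves over the 3 of 11 tested on day 11.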

How the data were processed

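The authors sequenced strand-specific libraries of poly(A) RNA from the leaves of 24 plants, 3 in each of 8 groups. Reads were trimmed with trimmomatic, and the authors estimated counts for each transcript of the published quinoa set with kallisto, which also gives an inferential variance, and fitted each treatment against control of the same day with sleuth 0.30.0. Reads per plant were not analysed here. The deposited table of 69 columns holds b, its standard error and the mean on the natural log scale of the authors' normalized estimated counts, together with the deposited variance components of each fit. These are the authors' own fits, and b and its standard error were used because the table holds no other value of a treatment. The deposited p-value and q-value columns of the authors' own comparisons were not used. No column gives a single plant. Group levels were computed as the exponential of the mean plus or minus b divided by 2.

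The p of each transcript was recomputed from b and its standard error with a normal (Wald) test and adjusted by Benjamini-Hochberg over all tested transcripts. Limma 3.58.1 in R 4.3.3 was given b and the residual variances, with a trend over abundance and 4 residual degrees of freedom for each fit. Days were compared by a z test with the summed squared standard errors. HRS was compared with HS, and HS and HRS with HR, by a z test with the largest standard error compatible with the residual variances, and the comparison with HR was chosen after the data were seen. The limma test of HRS against HS likewise ignored the shared control plants and had 4 residual degrees of freedom. Copies of a locus were compared with the sum of their standard errors, over all loci with 2 tested transcripts. Reported tests number 10 across transcripts, besides that of copies and the comparisons of HS and HRS with HR on each day. Computation was in Python 3.11.15 (pandas 2.3.3, numpy 2.4.6, scipy 1.17.1) and drawing in matplotlib 3.10.9. Of the tests, only the Wald and limma tests of a treatment against control were tried on simulated data. There the Wald standard error could not fall below the simulated one. The z tests and the test of copies were not tried in this way.

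The loci, the role and pathway lists and the rule for named transcripts were chosen with earlier results of these data known. Transcripts named are the most abundant copy of each locus, the 2 highest and 2 lowest effects of a role in each HS and HRS comparison, the 3 smallest p of each test between days, treatments and copies, those called in HR, and the 2 highest and 2 lowest HS effects on day 11 of each pathway list. PSBY AUR62001261 and the weak transcripts were also described because every member is accounted for. Gene symbols are those of the deposited Arabidopsis match, and no reference annotation used here pairs the transcript identifiers with a sequence, so no sequence or position is given. Alternatives were limma, scaling to the total estimated counts, an adjusted p threshold of 0.01, the standard error without shrinkage, and a filter on transcripts under the lower quartile of mean count. The total was taken as the sum of the group levels over all tested transcripts. P-values measure the spread between plants of 1 box and chamber per treatment.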

Additional observations from a re-analysis of the deposited data

Results flagged for a closer look

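The HS effect differed between the days in 49 of 51 transcripts by the z test, each lower on day 11. The differences with the smallest p were -4.02 in PSBY AUR62001261, where HS and control stood 107-fold apart on day 1 and 1.91-fold on day 11, -2.14 in PSBO2 AUR62019263 and -2.06 in ATPC1 AUR62021944, all on the natural log scale of day 11 minus day 1. The HRS effect differed between the days in 17 of 53 transcripts, with the smallest p at -3.98 in PSBY AUR62001261, -0.96 in ATPC1 AUR62021944 and -0.88 in PSBQ1 AUR62014619. A different set of control plants enters on each day, and the part of the control plants in these differences was not tested.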

How the results depend on the processing

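No paired analysis was possible because the table gives no values of single plants, and for the same reason no plant could be left out in turn. The depth of each plant was not analysed here and low counts limit the weak transcripts most. In the paper's read statistics, each HS plant of day 11 had smaller shares of pseudoaligned and unique reads than any other plant of that day. The bearing of this on the HS falls was not tested. With limma, 0 transcripts were called in HR on day 1 (6 by the Wald test), 28 in HS on day 11 (45) and 0 for HRS against HS on day 11 (31). Scaling to total estimated counts gave 1 call in HR on day 1 and 12 for HRS against HS on day 11, and a threshold of 0.01 gave 1 and 14. With the standard error without shrinkage, 32 were called in HR on day 1, 25 in HR on day 11 (0 as reported), 28 for the HRS effect between days (17), 2 pairs of copies (0), and 7 in HRS on day 11 (1), of which 2 were higher and 5 lower, so that the balance of calls turned round. With HR plants in place of control, chosen after the data were seen, HS had 9 calls and HRS had 7 on day 1 (44 and 38), and 0 in HRS on day 11 (1). The standard error of the comparison with HR plants is the largest that the separate fits allow, which in itself lowers the number of calls. The cause of these shifts was otherwise not tested. Shares over all transcripts were not counted under the scaling, threshold, standard error or filter alternatives. The counts under those alternatives are therefore not set against other transcripts. The other counts stayed within 1.5 times under each alternative run, among them HS on day 11 under 5 of 6 alternatives and the HS effect between days under each.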
